A study of Mus musculus with 6 samples.

Results

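Gm10800 and Gm10801 are 2 predicted gene models of mouse chromosome 2, and they were the 2 rows studied here among the 22162 genes of the table of MSF libraries. Their rows carry no gene symbol, so they were found by the Ensembl identifiers ENSMUSG00000075014 and ENSMUSG00000075015. They were selected on the difference between TAM and ethanol libraries seen in an earlier look at the same values. Their levels are therefore given as a description and with no test, and tests are kept for genes that were not chosen in this way.

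MSFs are fibroblasts grown from the dorsal skin of an FVB/N mouse of the FASST model. All 6 samples carry Col-Cre-ERT2, a Cre recombinase that needs TAM and is driven by a pro-alpha 2(I) collagen regulatory sequence, and the ROSAlox-stop-lox-p27Kip1 allele that the recombinase opens. Non-senescent samples (EtOH_1, EtOH_2 and EtOH_3) received the ethanol vehicle, and senescent samples (TAM_1, TAM_2 and TAM_3) received 10 µM TAM. The methods of the study give 48 h of treatment and 3% oxygen, and describe the MSF line as taken from a female mouse. Nothing in the labels says that the 3 samples of a group came from separate mice, so the spread between them may be technical. No cells without the allele received TAM among these samples, so TAM itself and the opening of the allele cannot be told apart. Poly(A) RNA was sequenced, and each value is a normalized count, a read count per gene that the authors scaled to a common level.

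Tandem satellites are short DNA units repeated head to tail in long arrays, and in mouse the most abundant of them, the major satellite, surrounds the centromeres. These arrays are packed into constitutive heterochromatin. The histone methyltransferases Suv39h1 and Suv39h2 place the repressive H3K9 methyl mark there, and the HP1 proteins encoded by Cbx1, Cbx3 and Cbx5 bind it. RNA copied from satellites has been described when this packing is loosened, senescence included. Stray copies of satellite sequence also lie outside the centromeres, and gene annotation pipelines have at times placed protein-coding models on them.

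Gm10801 lies on the plus strand of chromosome 2, at chr2:98502394-98504240 of mm9, with 3 exons that hold 510 coding bases. Gm10800 lies 2463 bases further on, on the minus strand, at chr2:98506704-98507458, with 5 exons that hold 660 coding bases. Both are annotated as protein-coding with no untranslated region. Of the 4 introns of Gm10800 the shortest is 1 base long and the longest 65, and its shortest exon has 12 bases. No other gene of the table lies within 1 Mb, and the nearest are Lrrc4c, 1030.6 kb before the pair, and B230118H07Rik, 2893.5 kb after it.

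**Figure D1:**
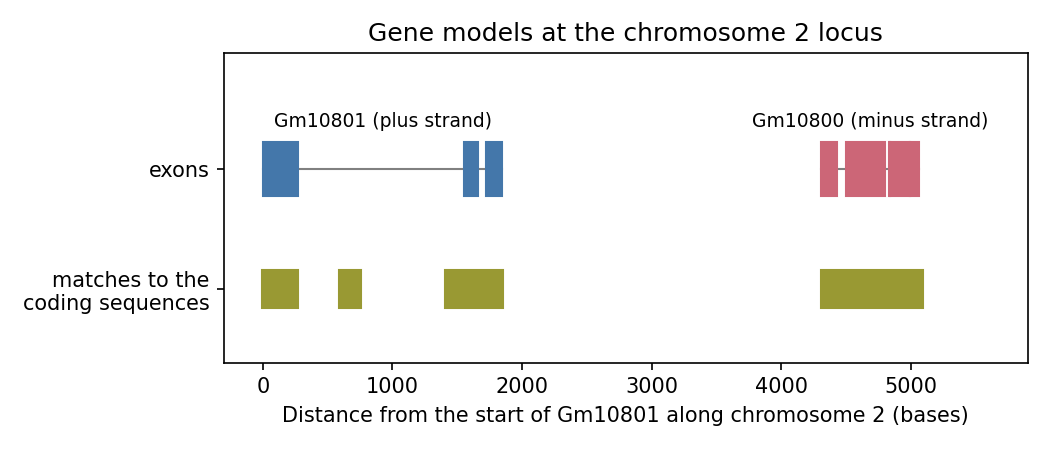
Exons of Gm10801 (blue) and Gm10800 (red) are drawn to scale against the distance in bases from the start of Gm10801, above the stretches of the locus that match the coding sequence of either gene (green). The 788-base stretch over Gm10800 covers all 5 of its exons and introns, whereas the matches at Gm10801 fall in 3 separate stretches.

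The 2 coding sequences share a repeated unit. Aligned to each other they matched over 512 positions at 89.6% identity, read in the same direction along the transcripts and hence in opposite directions along the chromosome. Their closest ungapped stretches of 120 bases inside single exons are printed here to show the shared unit, beside the closest stretches of Gm10717 and Gm10718, models of chromosome 9 that are described below. Bases in capitals differ from Gm10800. The stretches are chr2:98506904-98507023 (minus strand), chr2:98502412-98502531 (plus), chr9:3025834-3025953 (plus) and chr9:3024432-3024551 (plus), all of mm9.
Gm10800: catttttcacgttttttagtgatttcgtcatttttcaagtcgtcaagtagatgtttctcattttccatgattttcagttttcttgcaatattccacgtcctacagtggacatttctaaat
Gm10801: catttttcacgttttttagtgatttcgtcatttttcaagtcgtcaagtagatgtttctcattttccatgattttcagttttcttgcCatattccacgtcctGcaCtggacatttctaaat
Gm10717: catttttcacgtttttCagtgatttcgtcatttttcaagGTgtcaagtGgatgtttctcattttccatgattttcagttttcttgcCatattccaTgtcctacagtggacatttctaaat
Gm10718: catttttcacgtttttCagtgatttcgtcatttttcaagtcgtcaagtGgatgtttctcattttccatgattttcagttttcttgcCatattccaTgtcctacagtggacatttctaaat
Over these 120 bases Gm10801 differed from Gm10800 at 3 positions, Gm10718 at 4 and Gm10717 at 6.

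Within Gm10800 the unit recurs. When its 755-base span was laid over itself at every shift from 20 to 400 bases, the share of identical bases peaked at 67.2% for a shift of 234 bases, against a median of 30.7% over all shifts. A second peak of 64.7% stood at 251 bases. The pair of 120-base stretches that lie 234 bases apart and differ least are printed next, at chr2:98507071-98507190 and chr2:98506837-98506956 of mm9 on the minus strand, with the bases of the second that differ from the first in capitals.
first copy: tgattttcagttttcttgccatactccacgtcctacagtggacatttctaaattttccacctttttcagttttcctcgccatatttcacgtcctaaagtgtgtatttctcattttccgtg
second copy: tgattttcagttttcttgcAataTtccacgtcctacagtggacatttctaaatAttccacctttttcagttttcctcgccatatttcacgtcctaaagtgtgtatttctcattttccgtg
The copies differed at 3 of 120 positions. With the introns left out, the highest shares were 56.3% at a shift of 225 bases for the coding sequence of Gm10800 and 51.6% at 231 bases for that of Gm10801. A unit of 234 bases is the length known for the major satellite of the mouse, so by length and tandem order the name repeat-like holds for the genomic span of Gm10800. For Gm10801 it rests on its alignments to Gm10800 and to models of chromosome 9. The identity of its longest match to these models ranged from 74.1% (Gm10719, 518 positions) to 91.5% (Gm17535, 515 positions). The coding sequence of Gm10801 also had the peak given above, against a median of 31.3% over all shifts. Over its whole 1847-base span, which holds an intron of 1278 bases, no shift exceeded 37.3% identical bases.

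**Figure D2:**
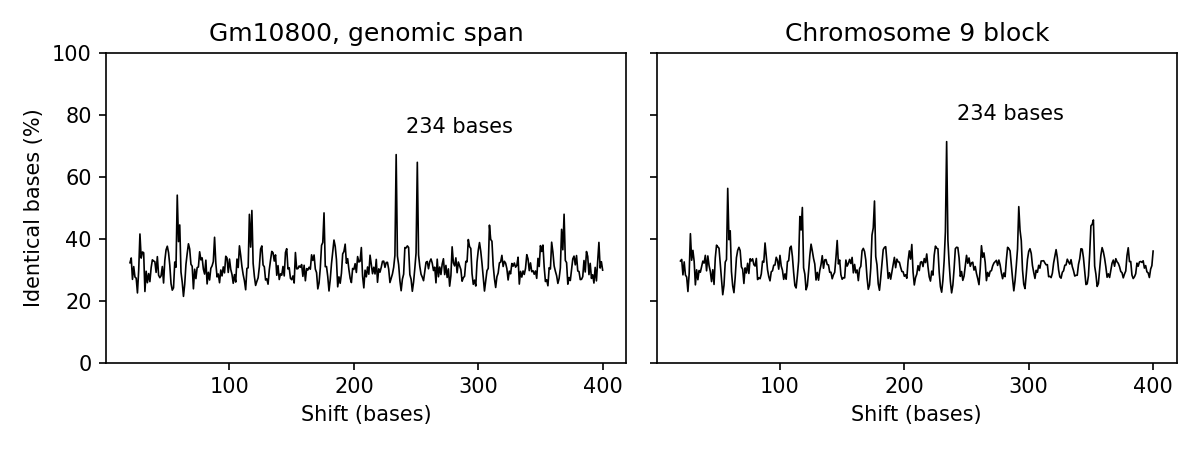
The share of identical bases (vertical axis, %) is plotted against the shift in bases when a sequence is laid over itself, for the span of Gm10800 (left) and for the block of matching sequence on chromosome 9 (right). Both curves reach their highest point at 234 bases, at 67.2% and 71.4%.

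The base composition of both models is far from that of most other genes. Thymine made up 45.8% of the coding bases of Gm10800 and 47.1% of those of Gm10801, against a median of 24.6% over the longest transcripts of 22108 genes. Only 28 of these genes, Gm10800 included, had a share as high as that of Gm10800. Among the 28 are Gm10801 and the 12 related models of chromosome 9 described below, with shares from 46.2% to 48.1%. The G+C share was 35.9% and 34.1%, against a median of 49.4%.

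A search of 55443 protein-coding transcripts found 12 other genes that align with either coding sequence for 100 bases or longer with 80% or more of the positions identical. They are Gm10106, Gm10715, Gm10716, Gm10717, Gm10718, Gm10719, Gm10720, Gm10721, Gm10722, Gm11167, Gm11168 and Gm17535. The same 12 were found at 70% and at 90% identity. All lie on the plus strand at the start of the sequence of chromosome 9, inside a block of matching sequence at chr9:3000003-3038419 of mm9, and all have rows in the table. Their longest matches to Gm10800 were between 643 and 682 positions long at 90.8% to 92.5% identity. Each of the 12 coding sequences had its highest share of identical bases at a shift of 234 bases, and so had the whole block of 38417 bases, at 71.4%.

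In the whole assembly, matches to the coding sequences of Gm10800 or Gm10801 covered 48628 bases in 37 places on 22 sequences of the assembly, the members' own loci included. Chromosome 9 held 79.8% of these bases and chromosome 2 held 3.46%. The share of the members' exons that a short read could place was measured with exact copies within the assembly only. Copies of the repeat that the assembly does not hold were not counted. Of the 50-base windows inside the exons of Gm10800, 54.0% occurred once in the assembly, and of those of Gm10801, 78.2%. At 36 bases the shares were 33.3% and 62.5%, with up to 71 copies of a window. At 100 bases every window, 282 of Gm10800 and 213 of Gm10801, occurred once in the assembly. Read length and the treatment of reads that match several places are not given in the sources used here, so a value of either row may hold reads from other copies of the repeat.

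Gm10800 had 24.7, 17.1 and 19.3 normalized counts in non-senescent replicates 1, 2 and 3 and 270.0, 316.7 and 321.7 in senescent replicates 1, 2 and 3. Every senescent library lay above every non-senescent one, and the lowest senescent value was 10.9 times the highest non-senescent value. The means were 20.4 ± 3.91 (SD, n = 3) and 303 ± 28.5 (SD, n = 3), a ratio of 14.9. On the scale of log2(normalized counts + 1) the difference between the groups was 3.84, number 25 from the top among the 11877 genes tested.

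Gm10801 had 5.95, 8.52 and 7.81 normalized counts in non-senescent replicates 1, 2 and 3 and 84.6, 113 and 119 in senescent replicates 1, 2 and 3. Again the groups did not overlap, with the lowest senescent value 9.93 times the highest non-senescent value. The means were 7.43 ± 1.33 (SD, n = 3) and 105 ± 18.3 (SD, n = 3), a ratio of 14.2. The log2 difference was 3.66, number 34 from the top. Non-overlapping groups with the senescent libraries on top were seen in 9.19% of all genes tested, and since the pair was selected on this difference nothing is read from that share.

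**Figure D3:**
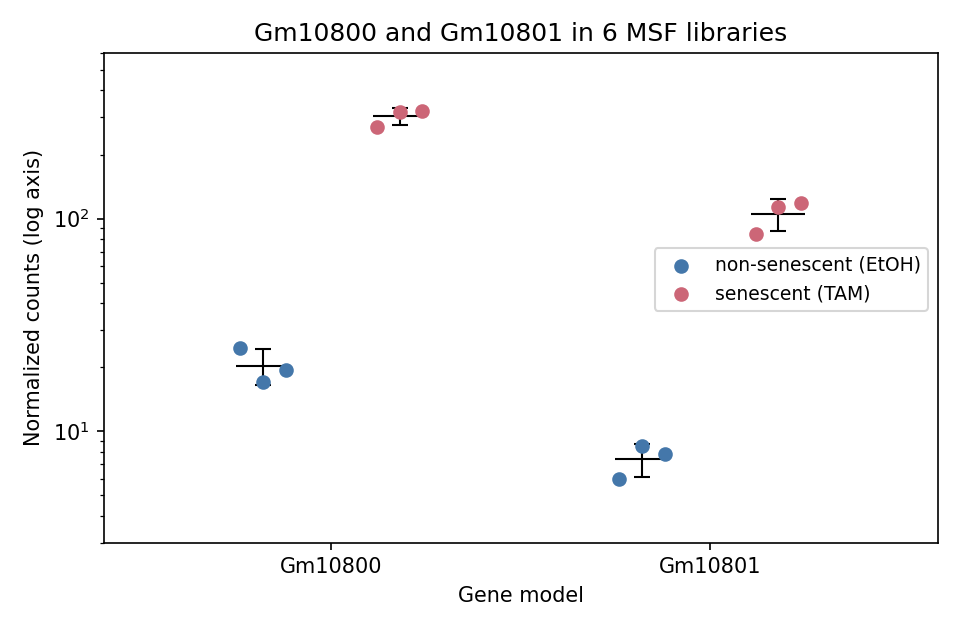
Normalized counts (log axis) of Gm10800 and Gm10801 are plotted for the 3 non-senescent (EtOH, blue) and 3 senescent (TAM, red) libraries, with black bars for the mean and SD of each group. All senescent points lie above all non-senescent points of the same gene, by at least 10.9 times for Gm10800 and 9.93 times for Gm10801.

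A value of 16.2 normalized counts stands for 1 c.p.m. here. Gm10800 reached it in all 6 libraries, at means of 1.26 and 18.7 c.p.m. in non-senescent and senescent MSFs. Gm10801 reached it in 3 libraries, the senescent ones, and so passed the filter of 1 c.p.m. in 3 libraries through the group where it is high, with means of 0.459 and 6.52 c.p.m. In senescent replicate 2, where all values under 400 lie within 0.1 steps of whole steps of 0.838 normalized counts, the values equal 378 steps for Gm10800 and 135 for Gm10801, which are whole reads if a step is 1 read.

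The replicates of a group were close to each other. The SD within a group was 19.2% and 9.42% of the mean for Gm10800 in non-senescent and senescent libraries, and 17.9% and 17.3% for Gm10801. Between libraries with the same replicate number the log2 differences were 3.40, 4.13 and 3.99 for Gm10800 in replicates 1, 2 and 3, and 3.62, 3.58 and 3.76 for Gm10801. All 6 of these differences thus had the same sign and were at least 3.40.

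The ratio of the members was described in each library. Gm10800 had 4.15, 2.01 and 2.47 times the normalized counts of Gm10801 in non-senescent replicates 1, 2 and 3, and 3.19, 2.80 and 2.71 times in senescent replicates 1, 2 and 3. The mean ratio was 2.88 ± 1.13 (SD, n = 3) and 2.90 ± 0.256 (SD, n = 3). No test was made, since both values were used in the choice of the pair. The ratio ranged more widely among non-senescent libraries, where Gm10801 was under 10 normalized counts. Per 1000 coding bases, the mean level of Gm10800 was 30.9 normalized counts in non-senescent and 459 in senescent MSFs, and that of Gm10801 was 14.6 and 207.

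The values of the pair summed to 30.7, 25.6 and 27.1 normalized counts in non-senescent replicates 1, 2 and 3 and to 355, 430 and 440 in senescent replicates 1, 2 and 3. With each non-senescent library left out in turn the log2 difference of Gm10800 stayed between 3.73 and 3.98 and that of Gm10801 between 3.52 and 3.75. With a senescent library left out, Gm10800 gave 3.79 to 3.92, and Gm10801 no longer passed the filter.

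The 12 models of chromosome 9 were not used in the choice of the pair, but they share its sequence, so their reads and those of the pair may not be independent. None passed the filter. Gm10715, Gm10716, Gm10721 and Gm11167 were listed at 0 in all libraries. The other 8 had higher means in senescent than in non-senescent MSFs, and none had a lower one. Only 3 of these 8 were above 0 in any non-senescent library. For the rest a lower mean was not possible, so nothing is read from the shared direction. Gm10717, the highest, had 2.11, 1.86 and 0 normalized counts in non-senescent replicates 1, 2 and 3 and 7.32, 7.53 and 9.32 in senescent ones. Gm10718 was listed at 0 in the 3 non-senescent libraries and had 5.11, 4.18 and 4.92 in the senescent ones. Gm10719 was likewise listed at 0 in non-senescent libraries and had 0.68, 1.66 and 3.13 in senescent ones. For these 3 models the groups did not overlap. Of all genes above 0 in at least 1 library, 9.49% had non-overlapping groups with the senescent libraries on top. Gm10718 and Gm10719 entered that set only through the senescent group, and the 3 models share sequence with the pair. Nothing is therefore read from this count.

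The remaining 5 models above 0 stayed at or below 3.68 normalized counts. Gm10722 and Gm11168 had values in both groups, and their groups overlapped. Gm10106, Gm10720 and Gm17535 were listed at 0 in each non-senescent library and in 1 senescent library. At such levels a value rests on few reads. In senescent replicate 2 the 12 rows together hold 28 steps, of which Gm10717 has 9 and Gm10718 has 5. These are reads if a step is 1 read.

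Summed over the 12 models, the normalized counts were 3.46, 1.86 and 0.84 in non-senescent replicates 1, 2 and 3 and 16.5, 23.4 and 25.2 in senescent replicates 1, 2 and 3. The groups did not overlap, and the mean was 10.6 times higher in senescent MSFs. The exact two-sided permutation p was 0.1, the smallest that 3 against 3 libraries can give. In limma's model without the filter on low values, the 8 models had adjusted p-values of 0.0525 for Gm10718, 0.178 for Gm10717 and between 0.225 and 0.529 for the others. With the replicate number as a block, Gm10718 had an adjusted p of 0.0497 and Gm10717 of 0.149, so that 1 of 8 passed the threshold of 0.05. Gm10718 and the other models listed at 0 in all non-senescent libraries entered these fits only through the senescent group. Nothing is read from their adjusted p-values.

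**Figure D4:**
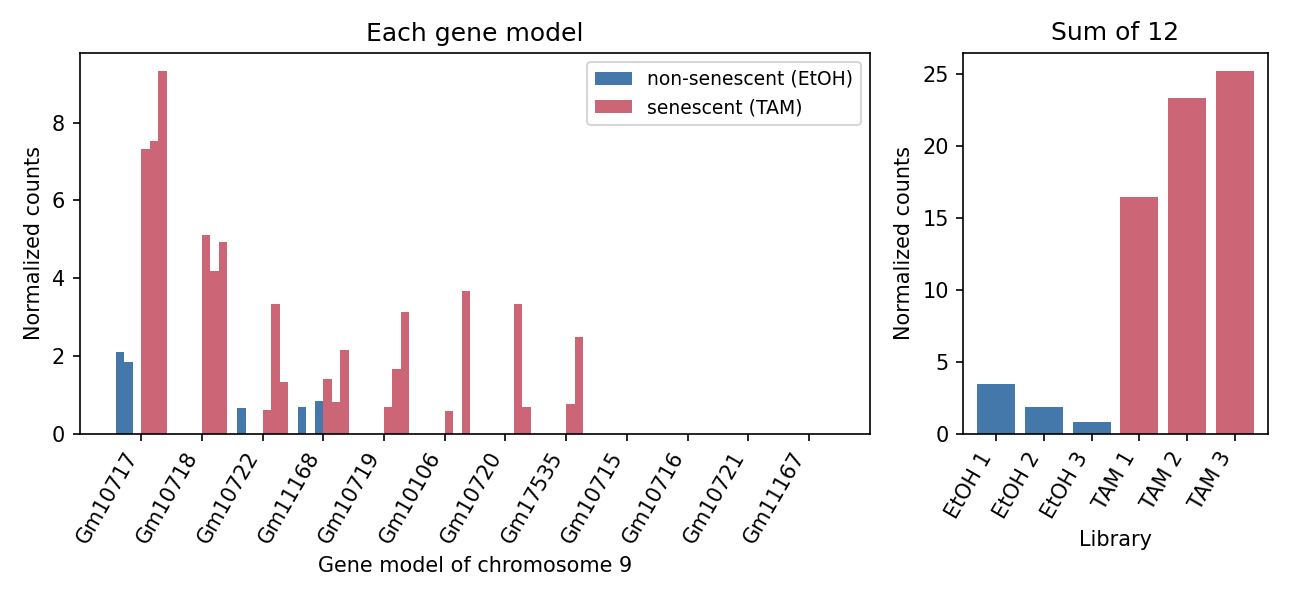
Normalized counts of each of the 12 chromosome 9 models that match the pair (left, bars in the order EtOH 1, 2, 3 and TAM 1, 2, 3) and their sum in each library (right) are plotted on linear axes, with non-senescent libraries in blue and senescent ones in red. The sums lie between 0.84 and 3.46 in non-senescent and between 16.5 and 25.2 in senescent libraries.

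The rest of the neighbourhood was measured next. Lrrc4c, a gene for a leucine-rich repeat adhesion protein of synapses, had 39.7, 16.2 and 35.3 normalized counts in non-senescent replicates 1, 2 and 3 and 73.9, 61.2 and 52.5 in senescent ones. Its groups did not overlap, with a log2 difference of 1.10 (standard error 0.42, limma adjusted p = 0.320). B230118H07Rik had 297, 190 and 283 against 266, 143 and 259 normalized counts, and its log2 difference was −0.23 (standard error 0.31, limma adjusted p = 0.797). The values of Lrrc4c and B230118H07Rik lie over 1 Mb from the pair and neither passed the threshold.

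Other predicted gene models were compared as a class. Of 2004 further rows named Gm with a number, 121 passed the filter, and 0 of these passed an adjusted p of 0.05 in limma with or without the replicate block, against 0.244% and 1.62% of all genes tested. At an unadjusted p under 0.05, 9 were higher and 7 lower in senescent MSFs, against 792 and 796 of all 11877 genes tested. Their median log2 difference was 0.01, and that of all genes tested was −0.03.

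Genes tied to pericentromeric heterochromatin were compared as the pathway around such repeats. The list is broad and holds genes with other or opposite roles beside those that pack satellite DNA. Its counts and median therefore do not describe the packing proteins alone. Of 59 rows for genes of pericentromeric heterochromatin, listed by hand, 57 were tested, and limma called 0 of them in either direction, with and without the replicate block. At an unadjusted p under 0.05, 0 were higher and 5 lower in senescent MSFs, and with the block 1 was higher and 4 lower. Over all 11877 genes tested, 792 were higher and 796 lower at that p, and 1026 and 988 with the block. The median log2 difference of the 57 was −0.17, against −0.03 for all genes tested, and 18 of the 57 were positive, against 5487 of all 11877.

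Suv39h1 and Suv39h2, the enzymes that write H3K9 methylation on satellites, had log2 differences of 0.08 (standard error 0.29) and 0.14 (standard error 0.46). Suv39h2 was low, between 13.4 and 31.0 normalized counts in all libraries. Of the HP1 genes, Cbx3 had 1399, 1743 and 1370 normalized counts in non-senescent replicates 1, 2 and 3 and 1044, 995 and 905 in senescent ones. The groups of Cbx3 did not overlap, and its log2 difference was −0.61 ± 0.17 (standard error), which missed the threshold in limma (adjusted p = 0.212). The groups of Cbx1 did not overlap either, with a log2 difference of −0.46 ± 0.18 (limma adjusted p = 0.342). Those of Cbx5 overlapped, with a log2 difference of −0.32 ± 0.29 (limma adjusted p = 0.678). Of the 57 heterochromatin rows tested, 7 had all senescent libraries below all non-senescent ones, and 1 had them above. Over all 11877 genes tested these counts were 1359 and 1091.

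Dnmt1, the maintenance DNA methyltransferase, had a log2 difference of −0.17 (standard error 0.41, limma adjusted p = 0.896). Uhrf1, which brings Dnmt1 to newly copied DNA, ranged from 45.0 to 318 normalized counts in non-senescent and from 34.9 to 224 in senescent libraries. Hells, a remodelling ATPase needed for satellite methylation, ranged from 63.0 to 252 and from 36.1 to 237. The spread within each group of Uhrf1 and Hells was thus wider than the log2 differences of −0.89 and −0.63 between groups, and replicate 2 was the highest library in both groups for both genes. Between libraries with the same replicate number, both genes were lower in the senescent one each time. A missed threshold does not show that the levels were alike, and the standard errors were 0.92 for Uhrf1 and 0.77 for Hells. With the replicate block they were 0.36 and 0.27 (limma adjusted p = 0.308 and 0.336).

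Several values of the libraries as a whole moved with the pair. Genes listed above 0 numbered 14811, 14876 and 14918 in non-senescent replicates 1, 2 and 3 and 15678, 15634 and 15710 in senescent ones, a difference in means of 806 genes. The sums of normalized counts ranged from 16205796 to 17314953 in non-senescent and from 14952367 to 16252633 in senescent libraries, and these ranges overlapped. They are sums of scaled counts and do not give the depth in reads. The smallest value above 0 was 0.5, 0.89 and 0.74 in non-senescent replicates 1, 2 and 3. In senescent replicates 1, 2 and 3 it was 0.42, 0.82 and 0.36. The part of depth in the number of genes detected was not tested. Genes above 0 but under 10 normalized counts, the range of the chromosome 9 models, also rose. They numbered 2901, 2695 and 2846 in non-senescent replicates 1, 2 and 3 and 3376, 3323 and 3380 in senescent ones. Whether the detection of more genes had a part in the levels of the pair or of the chromosome 9 models was not tested.

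Clustered histone genes, whose transcripts mostly end without a poly(A) tail, were higher in senescent libraries too. Their 67 rows summed to 1727, 2481 and 2912 normalized counts in non-senescent replicates 1, 2 and 3 and to 4562, 4913 and 5227 in senescent ones. The groups did not overlap (exact two-sided permutation p = 0.1, the smallest possible), and the mean was 2.07 times higher. Of 16 histone genes tested, limma called 3 higher (Hist1h4i, Hist1h2be and Hist1h4h) and 0 lower, and 4 higher with the replicate block. Of all 11877 genes tested, 20 were called higher, and 119 with the block. The median log2 difference of the 16 histone genes was 1.59. Olfactory and vomeronasal receptor genes, which fibroblasts are not known to use, summed to 319, 546 and 489 normalized counts in non-senescent replicates and 547, 403 and 494 in senescent ones, and these groups overlapped (exact two-sided permutation p = 0.6). Of their 1436 rows, however, 30, 32 and 41 were above 0 in non-senescent and 48, 55 and 50 in senescent libraries. The part of transcripts without a poly(A) tail, or of reads from outside expressed genes, in the levels of the pair was not tested.

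**Figure D5:**
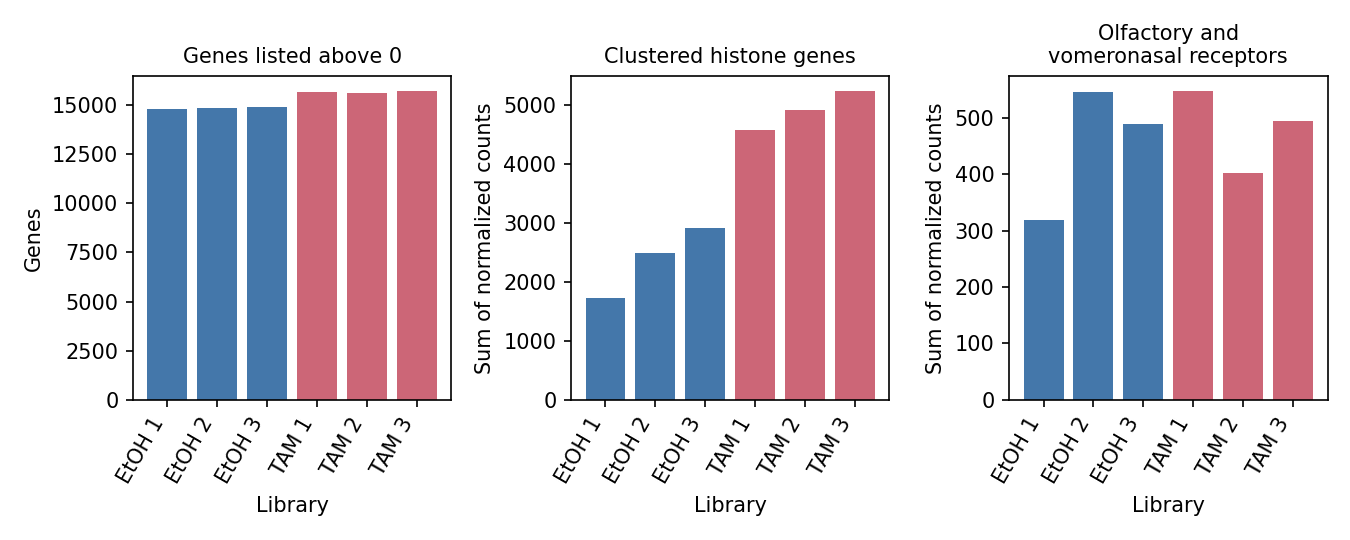
Bars give, for each of the 3 non-senescent (EtOH, blue) and 3 senescent (TAM, red) libraries, the number of genes listed above 0 (left) and the sums of normalized counts of clustered histone genes (middle) and of olfactory and vomeronasal receptor genes (right). The first and second quantities are higher in all senescent libraries, and the receptor sums overlap between 319 and 547.

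Patterns most like the pair were sought as Pearson's correlation of log2(normalized counts + 1) over the 6 libraries, among genes tested. The 6 libraries fall into the 2 groups for all such genes, so r mostly reflects that split and is given as a description. For Gm10800 the closest were Col10a1 (r = 0.996), Atp2b4 (r = 0.995) and Tulp4 (r = 0.988), and Gm10801 came after them with r = 0.988. For Gm10801 they were Tmx2 (r = 0.998), the histone gene Hist1h4i (r = 0.991) and 2310042D19Rik (r = 0.991), with Gm10800 at place 6. In all, 79 genes had r of at least 0.95 with Gm10800 and 54 with Gm10801. The log2 differences of these 6 neighbours in pattern ranged from 0.40 for Tmx2 to 2.61 for Hist1h4i, and so lay below those of the pair.

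The libraries matched their labelled cell type, with every one of 10 fibroblast markers above 100 normalized counts and Col1a1 between 265664 and 568528. Of the markers of other cell types, Krt1 of keratinocytes, Emr1 of macrophages and Ckm of muscle were listed at 0 in all libraries. Krt14, Ptprc and Dct did not exceed 5.01. Other markers of these lists were above 0, with Krt10 between 41.0 and 59.1, Cd68 between 49.6 and 352, and Pmel between 72.0 and 199. Mlana lay between 7.53 and 67.7, and Myh1 between 0.82 and 13.8. Krt5 had 0.64, 0 and 0 normalized counts in non-senescent replicates 1, 2 and 3 and 2.96, 7.53 and 13.4 in senescent ones. Csf1r had 75.7, 73.4 and 74.3 against 113, 226 and 90.6, so that both were higher in every senescent library. The summed fibroblast markers ranged from 1962055 to 2082633 in non-senescent and from 1278753 to 1594317 in senescent libraries. Of the 10 fibroblast markers, 7 had a lower mean in senescent libraries and 3 a higher one, Thy1 among the 3. The sum of 3 endothelial markers ranged from 78.3 to 209 in non-senescent and from 7.67 to 25.8 in senescent libraries, and was mostly Kdr. The sums of 4 keratinocyte, 4 macrophage, 3 melanocyte and 3 muscle markers overlapped between groups, although Acta1 reached 1404 in senescent replicate 2. The part of these marker differences in the levels of the pair was not tested. In bulk RNA, fewer cells of a type and less RNA per cell cannot be told apart.

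Cdkn1b, the gene of p27Kip1, had 1427, 3074 and 1853 normalized counts in non-senescent replicates 1, 2 and 3 and 1699, 1520 and 1630 in senescent ones (log2 difference −0.32, standard error 0.28, limma adjusted p = 0.677). Its row thus does not separate the groups as labelled, and whether reads of the ROSA26 allele were counted on it is not stated. Over the table, limma called 20 genes higher and 9 lower in senescent MSFs, and 119 higher and 73 lower with the replicate block.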

How the data were processed

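Per the labels and the methods of the study, reads were mapped to mm9 with TopHat, assigned to annotated genes with htseq-count and normalized by TMM by the authors in edgeR. The deposited signal is a single table that gives a normalized count for every gene in each library. Most values are not whole, so no count model was used. The sums per library lay between 14952367 and 17314953, and depth in reads is not given. Symbols were taken from Ensembl identifiers, of which 22148 of 22162 matched.

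Genes that reached 1 c.p.m. in 3 of 6 libraries or more were fitted with limma 3.58.1 in R 4.3.3, with an intensity trend on log2(normalized counts + 1). Benjamini-Hochberg adjusted p under 0.05 was called. The model was tested on simulated data. The labels number replicates 1 to 3, and deviations from the group means of same-numbered libraries correlated across genes at r = 0.24, 0.29 and 0.42 (other pairs −0.31 to 0.04), so a replicate block was also fitted.

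Sequences came from the mm9 (NCBIM37) genome and its GENCODE annotation. Matches were found with BLAST 2.17.0 without masking, and places within 1000 bases were joined. Figures were made with Python 3.11.15 and matplotlib 3.10.9.

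Both genes and all lists were chosen with earlier results of these data known. The genes named are the pair, its 12 sequence relatives, the nearest genes, 8 heterochromatin genes, the 3 genes most like each member, and Cdkn1b. The histone and receptor genes were named by symbol pattern, with the 3 called histone genes named after their values were seen. A name pattern for mitochondrially encoded genes matched 0 rows.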

Additional observations from a re-analysis of the deposited data

How the results depend on the processing

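Nothing is read from the sign of the log2 differences of Gm10800 and Gm10801, since the pair was selected on this contrast. These differences kept their sign under every alternative that gave a value. They moved by more than the SD between replicates with a pseudocount of 10, to 3.37 and 2.72, as the construction of that scale lowers differences between small values, and otherwise by less. Gm10801 gave no value with at least 10 normalized counts required in every library, or without any senescent library, since it then failed the filter. The replicate block left both differences as they were. The number of genes called over the table went from 29 to 192 with the replicate block, 17 without the filter and 18 with at least 10 normalized counts in every library, and from 0 to 15 with each library left out in turn (limma gave 0 without EtOH_1, EtOH_3 or TAM_1, 2 without EtOH_2, 5 without TAM_2 and 15 without TAM_3). In fits chosen after seeing the data, without the filter, it was 205 with the replicate block and 10 with a pseudocount of 0.1. The cause of these shifts was not tested. Of the chromosome 9 models none could be tested with the filter, and without it 0 of 8 were called, or 1 with the replicate block, which was chosen after seeing the data. That 1 model, Gm10718, entered the fit only through the senescent libraries. No heterochromatin gene of the list was called by limma under any alternative. Low values limit the chromosome 9 models, whose 12 rows hold 28 steps together in TAM_2, which are reads if a step is 1 read.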
